A study of Mus musculus with 41 samples.

Results

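Inflammatory cytokines and the prostaglandin synthase gene Ptgs2 were followed in 41 mammary tumors of a mouse transplant model. The 10 genes, Il1a, Il1b, Il6, Tnf, Il10, Il12b, Il18, Il33, Lif and Ptgs2, were chosen by name and not by their values, and each was read from its single probe on the array. They are 10 of 30175 named genes on the array, and 9 of them were among the 20913 genes that passed a filter on low signals, which Il12b did not pass. In each case, fragments of mammary duct from Trp53-null BALB/c females were grown in the cleared mammary fat pads of wild-type BALB/c females, so the epithelium lacked p53 and the stroma, vessels and immune cells of the host did not. Recipients were fed from week 3 of age on a low fat diet (LFD, 10% of energy from fat) or a high fat diet (HFD, 60%), lifelong, or with a change of diet at week 10 (HFD-LFD and LFD-HFD). Tumors were epithelial or spindle cell carcinomas, and those found within 52 weeks were called early and the others late. There were 29 epithelial tumors, 8 LFD, 8 HFD, 7 HFD-LFD and 6 LFD-HFD, of which 14 were early and 15 late, and 12 spindle cell tumors, 3 per regimen, of which 3 were early and 9 late.

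These genes are the messengers of acute inflammation. Il1a, Il1b and Tnf encode cytokines that macrophages and injured epithelium release and that activate NF-kB in their target cells. Il6 and Lif are induced downstream and act through the shared receptor subunit gp130 and STAT3, Il18 and Il33 belong to the IL-1 family, Il12b and Il10 encode a T cell stimulating and an anti-inflammatory cytokine of myeloid cells, and Ptgs2 encodes COX-2, the inducible enzyme that starts prostaglandin synthesis. In mammary tumors both the tumor cells and the infiltrating leukocytes can transcribe them, and in whole-tumor RNA fewer cells of a type and less RNA per cell cannot be told apart.

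Promoter sequences are shown for the 4 genes on which the comparisons turn: Ptgs2, which differed between histologies, Il6, which tracked Ptgs2 across tumors, Lif, which differed between regimens, and Il1b, which tracked Lif. Each is the 250 bases before the RefSeq start site in GRCm38.p6, 5′ to 3′, at chr1:150099781-150100030 (plus strand) for Ptgs2, chr5:30012864-30013113 (plus) for Il6, chr11:4257318-4257567 (plus) for Lif and chr2:129371140-129371389 (minus) for Il1b. Capitals mark matches on either strand to a TATA box (TATAAA), an AP-1 site (TGANTCA), a CRE core (ACGTCA), a C/EBP core (TTGCNNAA) or the NF-kB consensus.
Ptgs2: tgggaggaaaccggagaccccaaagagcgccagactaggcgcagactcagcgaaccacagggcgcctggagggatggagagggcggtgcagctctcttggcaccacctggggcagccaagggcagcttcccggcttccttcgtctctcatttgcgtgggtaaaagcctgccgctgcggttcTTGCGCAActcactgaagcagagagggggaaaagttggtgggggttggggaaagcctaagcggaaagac
Il6: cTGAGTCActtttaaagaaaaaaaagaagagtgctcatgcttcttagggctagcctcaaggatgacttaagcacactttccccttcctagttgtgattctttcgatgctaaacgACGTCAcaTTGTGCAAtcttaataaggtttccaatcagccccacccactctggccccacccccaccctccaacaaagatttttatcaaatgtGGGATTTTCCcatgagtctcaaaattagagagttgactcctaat
Lif: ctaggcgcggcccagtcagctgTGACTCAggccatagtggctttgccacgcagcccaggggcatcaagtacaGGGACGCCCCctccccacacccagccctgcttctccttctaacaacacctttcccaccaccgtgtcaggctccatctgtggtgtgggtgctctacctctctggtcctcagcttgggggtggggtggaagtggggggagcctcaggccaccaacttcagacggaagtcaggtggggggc
Il1b: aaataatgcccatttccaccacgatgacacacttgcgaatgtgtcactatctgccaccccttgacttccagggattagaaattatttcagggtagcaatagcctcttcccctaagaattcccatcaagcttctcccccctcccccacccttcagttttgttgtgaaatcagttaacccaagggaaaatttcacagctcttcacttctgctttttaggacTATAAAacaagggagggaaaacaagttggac

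Counted back from the start site, Ptgs2 held a C/EBP core at -69. Il6 held an AP-1 site at -249, a CRE core at -136, a C/EBP core at -128 and an NF-kB match at -44, Lif an AP-1 site at -228 and an NF-kB match at -178, and Il1b a TATA box at -31. RefSeq promoters were found for 9 of the 10 genes, at 10 start sites. Among the other genes, Il1a, Tnf, Il18 and Il33 held TATAAA, at -32, -29, -175 and, for the 2 start sites of Il33, -203 and -29. Il1a also held an AP-1 site at -12 and Il33 a C/EBP core at -85. Of 32817 mouse promoters of the same length, 12.4% held TATAAA, 9.57% the C/EBP core, 7.25% the NF-kB consensus, 6.75% the AP-1 site and 6.46% the CRE core, with no overlap between the marked matches of these 4 promoters. A match is a stretch of letters and not a shown binding site.

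Values are log2 ratios of the tumor over Universal Mouse Reference RNA, pooled from 11 cell lines of the mouse, and a ratio of 0 means equal signal in both. The sample labels put the tumor in the Cy5 channel, whereas the study's methods name Cy5 for the reference. The median of 4 Y-linked genes, which RNA of female mice lacks, was lower in Cy5 on 41 of 41 arrays, with log2 ratios of -4.74 to -1.33, and each array correlated with the mean of the others (r at least 0.74 across genes), so Cy5 was taken as the tumor. Between 52.4% and 94.9% of spots per array were well above background in the tumor channel, and precision is limited by how many arrays there are. Spindle cell arrays had a scan session, a scanner software version and slides of their own. These differences cannot be told apart from histology. The arrays lay on 11 slides. The LFD epithelial tumors shared no slide with those of the other regimens, so slide and regimen cannot be told apart in contrasts with LFD. The HFD tumors MSU_42L4B and MSU_60L, both early and epithelial, were alone on their slide and in their scan session, and 3.5% and 22% of their spots were marked as outliers. The deposited matrix columns of the HFD tumors MSU_40R4A, MSU_57R and MSU_65R matched the scanner files of MSU_57R, MSU_65R and MSU_40R4A, and the labels of the scanner files were kept.

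All 6 epithelial markers (Epcam, Cdh1, Krt8, Krt18, Krt5, Krt14) were well above background on at least 27 of 29 epithelial arrays and on 12 of 12 spindle cell arrays. Their mean log2 ratio spanned -0.19 to 4.26 across the epithelial arrays and -2.12 to 1.93 across the spindle cell arrays, and 0 of 6 differed between histologies at an adjusted p under 0.05. Among the markers of other cell types tested, the mesenchymal Vim (1.19), Col1a1 (1.22), Col3a1 (1.20) and Pdgfrb (0.92), 4 of 5 tested, were higher in spindle cell tumors on the log2 scale (among late tumors only, Vim with adjusted p = 0.0686, Col1a1 0.115 and Col3a1 0.158 were not called), as were the endothelial Pecam1 (0.87) and Kdr (0.56), 2 of 3. Cd8a of T cells (-1.39, 1 of 5) and Csf3r of neutrophils (-0.95, 1 of 4) were lower, and 0 of 7 macrophage, 0 of 2 B cell, 0 of 3 adipocyte and 0 of 3 skeletal muscle markers were called (limma, Benjamini-Hochberg adjustment). The call of Cd8a ended without any 1 of the spindle cell tumors MSU_M118R, MSU_M18L, MSU_M33R, MSU_M63L and MSU_M84R, with differences of -1.36 to -1.18 (adjusted p = 0.0531 to 0.0829). Macrophage markers had a mean log2 ratio of 0.33 to 2.41 in epithelial and 0.74 to 2.30 in spindle cell tumors, and neutrophil markers -3.65 to 2.17 and -3.64 to 2.13, so both lists overlapped almost completely between histologies.

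The 10 genes differed in how well they were measured. Il1b, Tnf, Il18 and Il33 had a tumor signal well above background on all 41 arrays, Lif on 39, Ptgs2 on 38, Il6 on 37, Il1a on 32 and Il12b on 32. Il10, whose product restrains macrophages, was so on 11 arrays, so most of its ratios rest on signals near background. Il12b exceeded a signal of 10 in both channels on 10 of 41 arrays and its reference signal had a median of 5.66, well above background on 3 arrays, so that its ratios rest on a denominator near background. The probes of Il1b, Tnf, Il10, Il12b and Ptgs2 were spotted 10 times per array and the others once. Signals of different probes cannot be ranked against each other, and every level below is a log2 ratio to the reference.

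Il1b had ratios far above the reference in all tumors, at 2.35 (tumor MSU_109L), 5.47 and 6.31 (MSU_17R) as lowest, median and highest of 29 epithelial tumors and 3.48 (MSU_M76R), 5.40 and 6.54 (MSU_M84R) in 12 spindle cell tumors. Tnf ran from 0.88 (MSU_117L) over 2.74 to 4.88 (MSU_60L) in epithelial and from 1.25 (MSU_M63L) over 2.80 to 3.81 (MSU_M86R) in spindle cell tumors. After background correction by normexp and loess, MSU_M86R had 1.17 in Tnf, and the highest spindle cell tumor was MSU_M33R with 2.64. Lif ran from 0.70 (MSU_109L) over 2.72 to 5.04 (MSU_31R) in 28 epithelial and from 1.57 (MSU_M32L) over 3.43 to 4.72 (MSU_M54R) in spindle cell tumors. These 3 cytokines were above the reference in every tumor measured, and their ranges overlapped almost entirely between histologies.

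Il33, an alarmin stored in the nuclei of epithelial and stromal cells, spanned -2.33 (MSU_42L4B), 1.65 and 4.84 (MSU_60L) in epithelial tumors (-0.67 to 4.44 without these 2 arrays of a session of their own) and -0.76 (MSU_M54R), 0.79 and 4.86 (MSU_M32L) in spindle cell tumors. Il1a spanned -1.56 (MSU_31R), 0.60 and 4.79 (MSU_62L) in 28 epithelial and -1.95 (MSU_M76R), 0.48 and 6.15 (MSU_M84R) in spindle cell tumors. In these ratios both genes thus varied among tumors of 1 histology by more than 5 log2 units. The lowest Il1a ratios rest on tumor signals not well above background, 5.04 in MSU_31R and 7.6 in MSU_M76R. After normexp and loess the epithelial ranges were narrower. They ran from -0.53 (MSU_31R) to 3.44 (MSU_62L) in Il1a and from -0.79 (MSU_42L4B) to 3.70 (MSU_31R) in Il33. Il18, which caspase-1 matures, lay below the reference in most tumors, at -3.22 (MSU_60L), -1.91 and 1.03 (MSU_56R) in epithelial and -3.62 (MSU_M18L), -1.65 and 0.33 (MSU_M129L) in spindle cell tumors. Il10 ran from -0.22 (MSU_65R) to 2.88 (MSU_17R) and from -0.68 (MSU_M18L) to 1.56 (MSU_M118R). Il12b ran from 0.20 (MSU_117L) to 6.12 (MSU_17R) and from 0.86 (MSU_M32L) to 6.79 (MSU_M86R). After normexp and loess, MSU_M86R had 0.28 in Il12b, and the highest spindle cell tumor was MSU_M33R with 1.31.

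**Figure D1:**
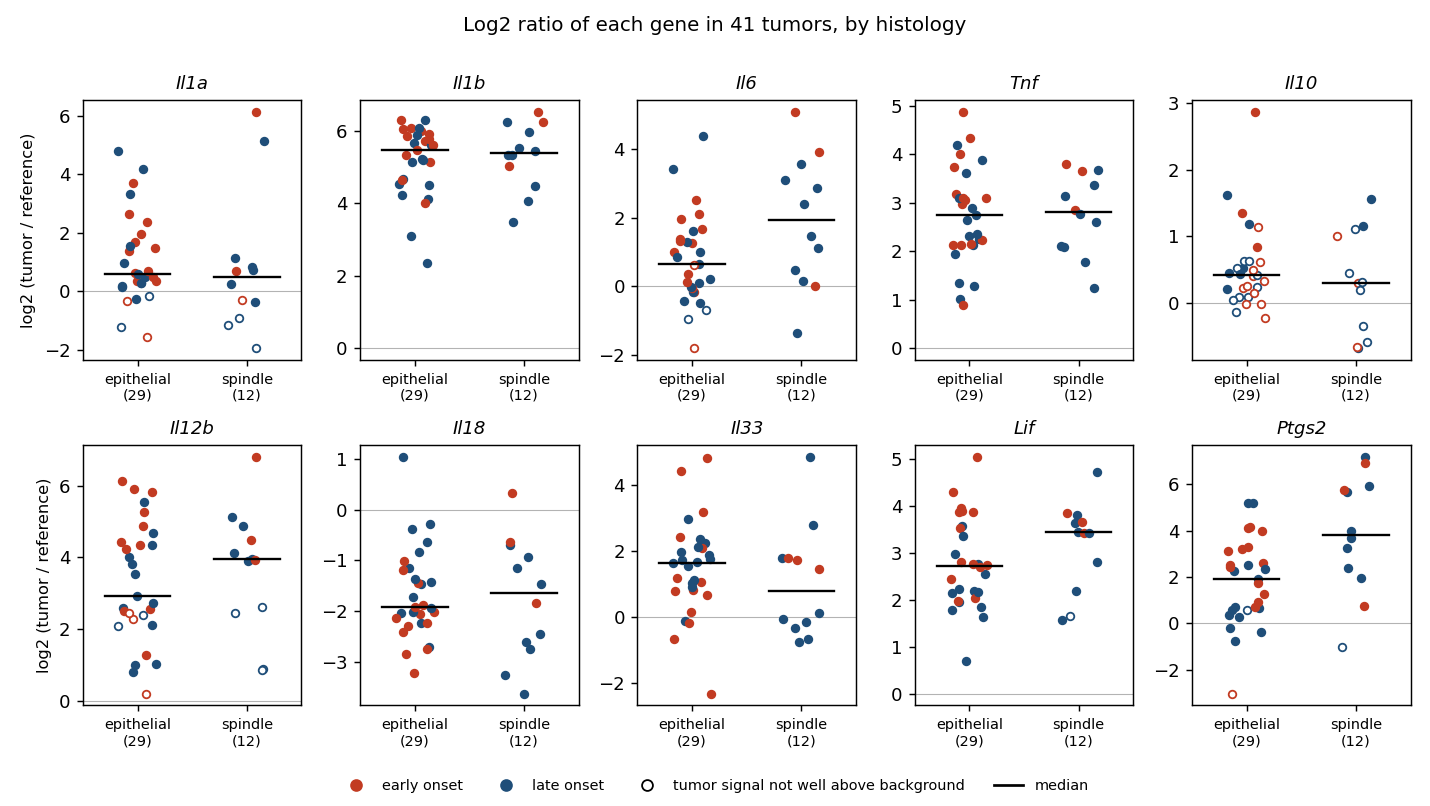
Log2 ratio of tumor over reference (y axis) of each of the 10 genes in 29 epithelial and 12 spindle cell tumors (x axis). Each point is a tumor, red for early and blue for late onset, open where the tumor signal was not well above background, and the black line is the median. The spindle cell points of Ptgs2 reach 7.17, while the histologies overlap in every gene.

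Ptgs2 was the 1 gene of the 9 tested that passed between histologies, and it was higher in spindle cell tumors. Epithelial tumors had a lowest Ptgs2 ratio of -3.03 (MSU_117R), a median of 1.91 and a highest of 5.20 (MSU_62L), and spindle cell tumors had -1.0 (MSU_M76R), 3.83 and 7.17 (MSU_M118R). In MSU_117R and MSU_M76R the tumor signal was not well above background. The histologies overlapped, although 5 spindle cell tumors, MSU_M118R, MSU_M129L, MSU_M63L, MSU_M84R and MSU_M33R, lay above every epithelial tumor. The mean was 1.81 ± 1.87 (SD, n = 29) in epithelial and 3.87 ± 2.54 (SD, n = 12) in spindle cell tumors, a log2 difference of 2.06 or 4.18-fold (SE 0.69, 95% interval 0.67 to 3.45, limma adjusted p = 0.0297 by Benjamini-Hochberg). Of all genes tested 20.2% were called in this comparison at an adjusted p under 0.05, and 1 of 9 is not above that share. The median difference of the 9 genes was 0.01, with 5 of 9 higher, against -0.07 over all genes, of which 43.1% were higher. The sign held under every alternative processing for 5 of the 9, Il1b, Il6, Il18, Il33 and Ptgs2, and that of Il18 turned when any 1 of 4 tumors was left out.

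The call of Ptgs2 rested on the same 5 spindle cell tumors that lay above the epithelial range. It ended without any 1 of MSU_M118R (1.76, adjusted p = 0.0727), MSU_M129L (1.78, adjusted p = 0.0706), MSU_M63L (1.87, adjusted p = 0.0644), MSU_M84R (1.89, adjusted p = 0.0590) and MSU_M33R (1.90, adjusted p = 0.0584), and also when slide was a random block (adjusted p = 0.0783) and among late tumors only (2.25, adjusted p = 0.0751). The tumor signal of Ptgs2 had a median of 844 in spindle cell and 195 in epithelial tumors, and the reference signal 75.5 and 62.8.

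Il6, the cytokine that drives the acute phase response, lay at -1.80 (MSU_31R), 0.66 and 4.4 (MSU_62L) in epithelial and at -1.36 (MSU_M128L), 1.94 and 5.10 (MSU_M129L) in spindle cell tumors. The ranges overlapped over nearly their whole length. The difference was 1.11 (SE 0.50, 95% interval 0.10 to 2.11, unadjusted p = 0.0320, limma adjusted p = 0.110) and did not pass, although without the spindle cell tumor MSU_M128L it was 1.40 (adjusted p = 0.0344). Differences of the other 7 tested genes lay between -0.45 for Il33 and 0.40 for Lif, with adjusted p from 0.394 to 0.986, and their 95% intervals included 0. Il12b, fitted without the filter, differed by 0.36 (SE 0.56, adjusted p = 0.668). Reference signals also differed between histologies. That of Il6 had a median of 70.8 in spindle cell and 39.3 in epithelial tumors, and its tumor signal 195 and 65.5. For Lif, in the same order, the reference medians were 16.9 and 36.8 and the tumor medians 201 and 339. The part of the reference signals in these differences was not tested.

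The genes around the cytokines, from lists fixed by pathway, gave few calls in this comparison. Of 21 receptors and antagonists, Il18rap, a signalling subunit of the IL-18 receptor, was higher by 1.56 (adjusted p = 0.0149) and Lifr, the ligand-binding receptor of LIF, was lower with a difference of -0.90 (adjusted p = 0.0245), with a list median of 0.11. Of 6 tested genes for processing and partner subunits, Gsdmd, the pore that releases IL-1, was higher by 0.74 (adjusted p = 0.0294) and the inflammasome sensor Nlrp3 by 0.64 (adjusted p = 0.0101), with a median of 0.00. Of 12 prostanoid and leukotriene enzymes, Ptgds, a prostaglandin D synthase, was lower with a difference of -1.0 (adjusted p = 0.00767), with a median of 0.06. Of 18 tested NF-kB and STAT3 genes, Nfkb1 was higher by 1.06 (adjusted p = 0.00248) and Socs3, the feedback inhibitor that STAT3 induces, by 0.43 (adjusted p = 0.0440), with a median of 0.19. The pathway calls numbered 2 of 21, 2 of 6, 1 of 12 and 2 of 18, beside 20.2% of all genes.

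Several of these calls were not stable. The call of Lifr ended without MSU_M63L or MSU_M84R (-0.82 to -0.71, adjusted p = 0.0517 to 0.0759) and that of Gsdmd without MSU_M118R or MSU_M129L (0.61, adjusted p = 0.0765 to 0.0772). The call of Socs3 ended without any 1 of 15 tumors (MSU_109L, MSU_11L, MSU_13L, MSU_19R, MSU_27L4A, MSU_57R, MSU_90R, MSU_M118R, MSU_M129L, MSU_M18L, MSU_M32L, MSU_M33R, MSU_M56LA, MSU_M63L and MSU_M84R), with 0.40 to 0.43 and adjusted p of 0.0522 to 0.0757. After background correction by normexp and loess, Nlrp3 differed by 0.12 (adjusted p = 0.404), Gsdmd by 0.66 (adjusted p = 0.0629) and Il18rap by 0.68 (adjusted p = 0.0554). Among late tumors only, Nlrp3 differed by 0.66 (adjusted p = 0.0886) and Gsdmd by 0.58 (adjusted p = 0.180).

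**Figure D2:**
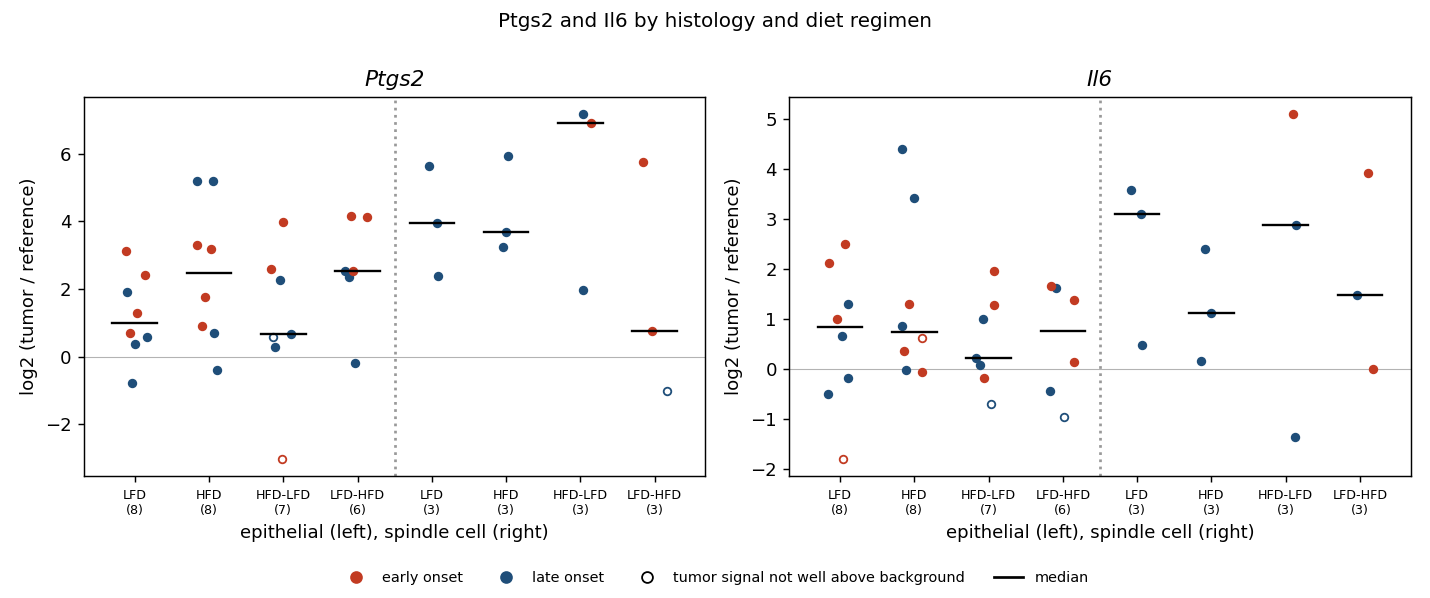
Log2 ratios of Ptgs2 and Il6 (y axis) by histology and diet regimen (x axis, number of tumors in brackets). Points are tumors, red for early and blue for late onset, open where the tumor signal was not well above background, and lines are medians. In spindle cell tumors Ptgs2 spreads from -1.0 to 7.17, with high and low tumors in 1 and the same regimen.

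Among spindle cell tumors no gene passed between the diets. Ptgs2 was 2.39 (MSU_M18L), 3.97 and 5.65 (MSU_M33R) in the 3 LFD tumors, 3.24 (MSU_M56LA), 3.69 and 5.94 (MSU_M63L) in the HFD tumors, 1.96 (MSU_M128L), 6.92 and 7.17 (MSU_M118R) in the HFD-LFD tumors, and -1.0 (MSU_M76R), 0.75 and 5.75 (MSU_M84R) in the LFD-HFD tumors. The 4 regimens overlapped. Il33 was -0.32 (MSU_M18L), 1.79 and 4.86 (MSU_M32L) in LFD, -0.76 (MSU_M54R), -0.68 and -0.17 (MSU_M63L) in HFD, -0.07 (MSU_M128L), 0.11 and 1.47 (MSU_M129L) in HFD-LFD and 1.74 (MSU_M86R), 1.79 and 2.79 (MSU_M76R) in LFD-HFD tumors, so that 3 of the 6 pairs of regimens, those among HFD, HFD-LFD and LFD-HFD, did not overlap. Of the 9 genes, 1 (Il33) did not overlap for HFD against LFD-HFD, beside 11.6% of all genes, 1 (Il33) for HFD-LFD against LFD-HFD, beside 13.7%, 2 (Il33 and Lif) for HFD against HFD-LFD, beside 6.51%, 1 (Lif) for HFD against LFD, beside 9.22%, 1 (Il1a) for HFD-LFD against LFD, beside 9.57%, and 0 for LFD-HFD against LFD, beside 5.79%. Across the 4 regimens, limma's F-test called 0 of 9 genes and 0% of all genes, with 0 of the 9 and 782 of all 20908 genes at an unadjusted p under 0.05 (Il33, adjusted p = 0.977).

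Among epithelial tumors the regimen contrast with a call was HFD-LFD against LFD, in which Lif was lower. Lif ran from 1.79 (MSU_11L) over 3.54 to 5.04 (MSU_31R) in 8 LFD tumors and from 0.70 (MSU_109L) over 1.97 to 2.45 (MSU_107R) in 6 HFD-LFD tumors, the value of the HFD-LFD tumor MSU_122Rb being a spot marked as an outlier. The groups overlapped, since the LFD tumor MSU_11L lay below the HFD-LFD median. The mean was 3.37 ± 0.99 (SD, n = 8) in LFD and 1.79 ± 0.59 (SD, n = 6) in HFD-LFD tumors, which differed on the log2 scale by -1.58 or 2.99-fold (SE 0.42, 95% interval -2.44 to -0.72, limma adjusted p = 0.0882 by Benjamini-Hochberg, called under 0.10). Of all genes 1.25% were called in this contrast, and of the 9 genes 1, with 1 of 9 higher and a median difference of -0.51 against -0.07 over all genes, of which 42.8% were higher. The signs of Il6 and Ptgs2 turned under some alternatives and those of the other 7 did not.

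Lif in HFD tumors, from 2.16 (MSU_62L) over 2.89 to 3.96 (MSU_40R4A), and in LFD-HFD tumors, from 1.86 (MSU_71L) over 2.45 to 4.29 (MSU_82L), lay between those means, at 3.02 ± 0.68 (SD, n = 8) and 2.65 ± 0.87 (SD, n = 6). The order of the means was LFD, HFD, LFD-HFD and HFD-LFD, and every regimen overlapped the next. In tumor MSU_109L, with the lowest ratio, the tumor signal of Lif was 658 and the reference signal 405, and in MSU_122Rb, the outlier spot, the reference signal was 732, whereas the reference signal had a median of 32.4 over the 41 arrays. In MSU_31R, with the highest ratio, the reference signal of 11.1 was not well above background. The part of these reference signals in the difference was not tested.

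The Lif call lay close to its threshold. It ended when any 1 of 12 tumors was left out (MSU_108R, MSU_109L, MSU_117L, MSU_117R, MSU_11R, MSU_122Rb, MSU_13L, MSU_17R, MSU_22R, MSU_31R, MSU_65R and MSU_92R), with differences of -1.63 to -1.34 and adjusted p of 0.101 to 0.171, and taking slide as a random block gave an adjusted p of 0.347. Among these tumors, MSU_65R and MSU_92R were in neither group and MSU_122Rb had no Lif value. Without any 1 of them the difference stayed at -1.58.

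Il1b, which shares its myeloid sources with Tnf, lay at 4.51 (MSU_27L4A), 5.51 and 6.31 (MSU_17R) in LFD and at 2.35 (MSU_109L), 5.15 and 6.02 (MSU_107R) in HFD-LFD tumors. The HFD-LFD tumors MSU_109L, MSU_122Rb (3.11) and MSU_117L (4.02) lay below every LFD tumor, and the other 4 overlapped with them. The Il1b reference signal was 128.4 in MSU_109L and 151.7 in MSU_122Rb, against a median of 64.95 over the 41 arrays. It was 45.1 in MSU_117L, and 185.4 in the LFD tumor MSU_17R, which had the highest ratio. The Il1b difference of -0.99 (SE 0.44, unadjusted p = 0.0324, limma adjusted p = 0.316) did not pass. Il12b, fitted without the filter, differed by -1.69 (unadjusted p = 0.0436, adjusted p = 0.342). Its reference signal was 102.15 in MSU_109L (ratio 0.80) and 152.7 in MSU_122Rb (1.02), against a median of 5.66 over the 41 arrays. The highest in an LFD tumor was 38.6 (MSU_11L). The Il12b tumor signals of MSU_109L and MSU_122Rb were 176.96 and 309.9. The part of these reference signals in the Il1b and Il12b differences was not tested. Of the 21 receptors and antagonists 19 were lower in HFD-LFD tumors (18 after loess or median centring, 14 of 20 in the authors' matrix), with a median of -0.29. Of all genes 42.8% were higher in this contrast. Of the 21 receptors and antagonists 0 were called, as were 0 of 18 NF-kB and STAT3 genes (median 0.09), 0 of 12 prostanoid enzymes (0.23) and 0 of 6 processing genes (0.17). Macrophage markers lay at 0.85 to 1.38 in HFD-LFD and 0.33 to 1.36 in LFD tumors and neutrophil markers at -2.87 to -1.23 and -3.65 to 0.93, and 0 of 7 and 0 of 4 of them were called.

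**Figure D3:**
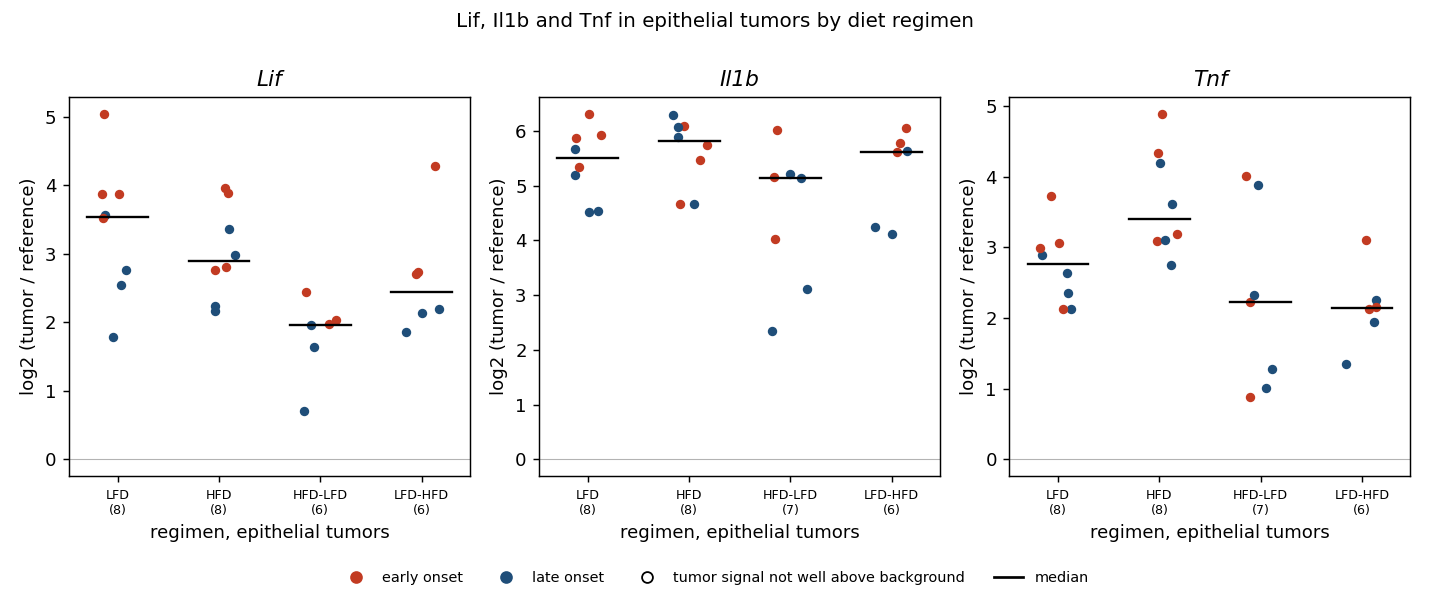
Log2 ratios of Lif, Il1b and Tnf (y axis) in epithelial tumors by diet regimen (x axis, number of tumors in brackets). Points are tumors, red for early and blue for late onset, open where the tumor signal was not well above background, and lines are medians. The Lif values of HFD-LFD tumors end at 2.45, below the LFD median of 3.54.

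Lifelong HFD gave no call against lifelong LFD. Tnf had its highest values in HFD tumors, from 2.74 (MSU_57R) over 3.39 to 4.88 (MSU_60L), against 2.13 (MSU_13L), 2.76 and 3.73 (MSU_17R) in LFD, 0.88 (MSU_117L), 2.23 and 4.01 (MSU_117R) in HFD-LFD and 1.35 (MSU_90R), 2.14 and 3.10 (MSU_82L) in LFD-HFD tumors. All 4 regimens overlapped. The HFD and LFD difference was 0.90 (SE 0.40, unadjusted p = 0.0338, limma adjusted p = 0.494). The 2 highest values were those of MSU_60L and MSU_42L4B (4.34), whose Tnf reference signal was not well above background, and without them the difference was 0.58 (SE 0.42, adjusted p = 0.70). That of Il18 was 0.61 (adjusted p = 0.658) with them and 1.20 (SE 0.36, adjusted p = 0.374) without. Il1a was 0.36 (MSU_65R), 2.06 and 4.79 (MSU_62L) in HFD and -1.56 (MSU_31R), 0.78 and 3.70 (MSU_17R) in LFD tumors, with a difference of 1.31 (SE 0.65, unadjusted p = 0.0524, adjusted p = 0.538). In HFD-LFD tumors Il1a lay at -0.35 (MSU_107R), 0.21 and 0.61 (MSU_117L), n = 6, and in LFD-HFD tumors it lay at -1.23 (MSU_101L4A), 0.60 and 1.96 (MSU_82L). Limma called 0 of 9 genes and 0% of all genes in the HFD contrast, where 1 of the 9 and 1971 of all 20913 had an unadjusted p under 0.05.

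Ptgs2 was 1.21 ± 1.25 (SD, n = 8) in LFD, 2.49 ± 2.08 (SD, n = 8) in HFD, 1.05 ± 2.24 (SD, n = 7) in HFD-LFD and 2.58 ± 1.59 (SD, n = 6) in LFD-HFD epithelial tumors. Its lowest, median and highest values were -0.76 (MSU_11L), 0.99 and 3.14 (MSU_22R) in LFD, -0.38 (MSU_57R), 2.48 and 5.20 (MSU_62L) in HFD, -3.03 (MSU_117R), 0.66 and 3.99 (MSU_117L) in HFD-LFD, and -0.20 (MSU_90R), 2.53 and 4.15 (MSU_92R) in LFD-HFD tumors. No pair of regimens was separated in Ptgs2. Its differences from LFD were 1.28 for HFD (SE 0.87, adjusted p = 0.650), 1.38 for LFD-HFD (SE 0.94, adjusted p = 0.888) and -0.16 for HFD-LFD (SE 0.90, adjusted p = 0.960, limma). The pair MSU_117R and MSU_117L, the extremes of HFD-LFD, carry the same label number. In MSU_117R the tumor signal of Ptgs2 was 8.85 and not well above background, and after normexp and loess its ratio was -0.60.

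In LFD-HFD against LFD tumors limma called 0 of 9 genes and 0% of all genes, with 0 of the 9 and 1371 of all 20913 at an unadjusted p under 0.05. Il33 had the difference farthest from 0 apart from Ptgs2, -1.25 (SE 0.74, adjusted p = 0.848), at 0.66 (MSU_11R), 1.82 and 4.44 (MSU_31R) in LFD and -0.19 (MSU_82L), 0.68 and 1.88 (MSU_90R) in LFD-HFD tumors, which overlapped. Over the 4 regimens together, the F-test called 0 of 9 genes and 0.473% of all genes. Of the 9, Tnf (limma adjusted p = 0.215), Lif (adjusted p = 0.222) and Il1a (adjusted p = 0.293) had an unadjusted p under 0.05, as had 2708 of all genes. The 3 contrasts share the 8 LFD tumors. None of the pathway lists had a called gene in these contrasts.

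**Figure D4:**
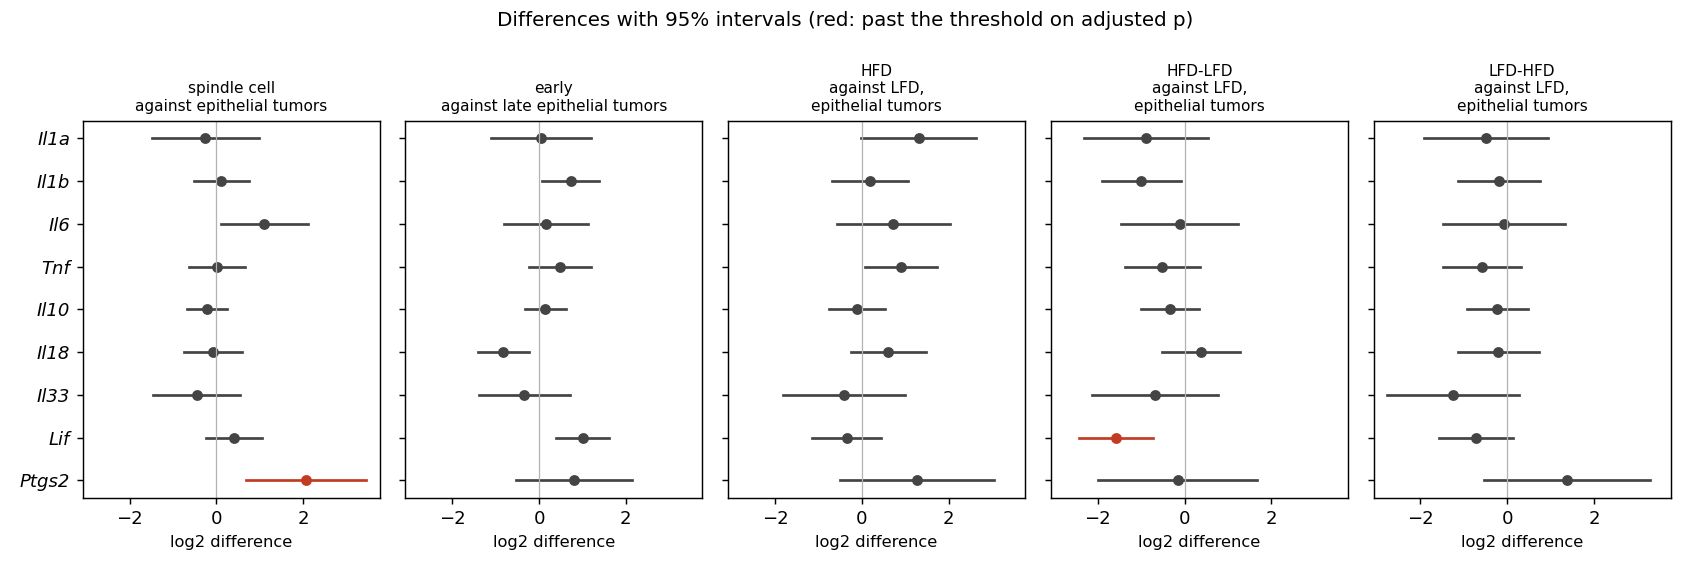
Log2 differences (x axis) of the 9 tested genes (y axis) in 5 comparisons, with 95% intervals from limma and red where the adjusted p passed. Red marks Ptgs2 between histologies, at 2.06, and Lif in HFD-LFD against LFD, at -1.58.

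Grouping all 41 tumors by the diet of puberty or of adulthood gave no calls. The 21 tumors after pubertal HFD differed from the 20 after pubertal LFD by -0.61 in Il33 to 0.54 in Ptgs2, with 0 of 9 called beside 0.00956% of all genes with 0 of the 9 and 1453 of all 20913 at an unadjusted p under 0.05. The 20 tumors under adult HFD differed from the 21 under adult LFD by -0.48 in Il33 to 0.72 in Il1a, with 0 of 9 called, 0% of all genes called and 954 of all 20913 genes at an unadjusted p under 0.05 (limma). In both, 0 genes of the pathway lists were called. The 95% interval of the Ptgs2 difference ran from -0.84 to 1.92 in the pubertal and from -0.84 to 1.93 in the adult comparison. The sign held under every alternative processing for 4 of 9 genes in the pubertal and 3 of 9 in the adult comparison. With slide as a fixed block, which in the adult comparison rests on the slides of spindle cell tumors that held both diets, the adult differences were -1.95 for Il1a (SE 1.36), -1.74 for Ptgs2 (SE 1.69) and -0.73 for Tnf (SE 0.69). Those of Il6 and Il1b were -1.82 (SE 1.25) and -0.65 (SE 0.70). Il33 had -2.54 (SE 1.21, unadjusted p = 0.0438, limma adjusted p = 0.826) and Lif 1.37 (SE 0.61, unadjusted p = 0.0322, limma adjusted p = 0.807). Il18 and Il10 had 0.23 and -0.01. On the slides that held both adult diets, MSU_M32L and MSU_M33R were the only tumors under adult LFD. MSU_M32L had the highest Il33 ratio of all tumors, 4.86.

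The pubertal effect was then compared between histologies by an interaction term. It was called for 0 of 9 genes and 0.445% of all genes. Unadjusted p fell under 0.05 for Il1a (-2.55, SE 1.19, limma adjusted p = 0.371), Il33 (-2.13, SE 0.94, adjusted p = 0.341) and Lif (1.28, SE 0.62, adjusted p = 0.396), a negative sign meaning a lower HFD effect in spindle cell tumors. After normexp and loess, Lif had 1.14 (adjusted p = 0.0802) and was called. That fit called 2364 of all genes, against 93 in the first fit, so the Lif call was 1 of many. In the first fit Hpgd, the enzyme that inactivates prostaglandins, was called among the 12 prostanoid and leukotriene genes, at -2.92 (SE 0.74, adjusted p = 0.0881). Without the tumors MSU_M32L, MSU_M86R and MSU_M76R, Hpgd had -1.59 (adjusted p = 0.662). The Hpgd call also ended without any 1 of 22 tumors (MSU_108R, MSU_117L, MSU_11R, MSU_122Rb, MSU_13L, MSU_19R, MSU_22R, MSU_27L4A, MSU_31R, MSU_40R4A, MSU_57R, MSU_62L, MSU_71L, MSU_82L, MSU_90R, MSU_M118R, MSU_M129L, MSU_M32L, MSU_M54R, MSU_M56LA, MSU_M63L and MSU_M76R), with -3.06 to -2.42 and adjusted p of 0.101 to 0.264.

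Early and late epithelial tumors were compared for each gene. Lif was 1.97 (MSU_117L), 3.17 and 5.04 (MSU_31R) in 14 early and 0.70 (MSU_109L), 2.18 and 3.56 (MSU_13L) in 14 late tumors. The ranges overlapped from 1.97 to 3.56. The difference was 1.0 (SE 0.30, 95% interval 0.39 to 1.62, unadjusted p = 0.00239, limma adjusted p = 0.180), and within the 3 slides that held both onsets it was 0.87. It passed without tumor MSU_117L (1.1, adjusted p = 0.0850) and in no other fit that left out 1 tumor. Il18 was -3.22 (MSU_60L), -2.09 and -1.02 (MSU_40R4A) in early and -2.71 (MSU_27L4A), -1.41 and 1.03 (MSU_56R) in late tumors, overlapping below -1.02. Its difference was -0.82 (SE 0.29, unadjusted p = 0.00785, adjusted p = 0.227), and within slides -1.48. Without MSU_42L4B and MSU_60L it was -0.67 (SE 0.29, unadjusted p = 0.0304, limma adjusted p = 0.424). Il1b was 4.02 (MSU_117L), 5.76 and 6.31 (MSU_17R) in early and 2.35 (MSU_109L), 5.15 and 6.30 (MSU_62L) in late tumors, with a difference of 0.73 (SE 0.32, unadjusted p = 0.0293, adjusted p = 0.324) and 0.30 within slides. The 3 slides behind the within-slide values held HFD and LFD-HFD tumors only. On the slide of MSU_56R, MSU_62L, MSU_80L and MSU_92R the late tumors were HFD and the early ones LFD-HFD. Another of the 3 held MSU_66L with MSU_40R4A, MSU_57R and MSU_65R, the tumors whose matrix columns matched other scanner files. In LFD, and in HFD-LFD, early and late tumors lay on separate slides, so slide and onset cannot be told apart there.

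In this comparison 0 of 9 genes and 0.143% of all genes were called, and 3 of the 9 and 2753 of all 20913 had an unadjusted p under 0.05. The median difference of the 9 genes was 0.16, with 7 of 9 higher in early tumors, against 0.01 over all genes, of which 52.2% were higher, and the sign held under every alternative for 4 of the 9, Il1b, Il18, Lif and Ptgs2. Ptgs2 differed by 0.80 (SE 0.66, adjusted p = 0.616), Tnf by 0.48 (SE 0.35, adjusted p = 0.570; 0.21 without MSU_42L4B and MSU_60L) and Il6 by 0.16 (SE 0.47, adjusted p = 0.917). The receptors and antagonists had a median difference of 0.35, with 13 of 21 higher (11 with the slide as a fixed block, 16 after loess), the NF-kB and STAT3 genes 0.11, the prostanoid enzymes -0.11 and the processing genes 0.12, and none of them was called. Il12b had 0.83 from the scanner signals (no filter, adjusted p = 0.623), whereas in the authors' matrix it had 1.08 (adjusted p = 0.0620), from values of 1.05, 1.98 and 3.13 in 11 early and 0.48, 1.04 and 2 in 14 late tumors, which overlapped. The matrix fit took the columns by their labels. The column of the early MSU_40R4A matched the scanner file of the late MSU_57R, and that of MSU_57R matched the early MSU_65R. In the scanner files Il12b was 5.53 in MSU_57R and 2.55 in MSU_65R. A matrix fit with these columns relabelled was not tested. The study's comparison of early to late tumors lists IL12B under down-regulated molecular functions, whereas the matrix difference here was positive. The reason was not tested.

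Over both histologies, 17 early tumors had a mean Lif ratio higher by 0.77 (SE 0.28, unadjusted p = 0.00822, limma adjusted p = 0.379) and a mean Il1b ratio higher by 0.70 (SE 0.27, unadjusted p = 0.0138, adjusted p = 0.433) than 24 late tumors, with 0 of 9 called and 0.0143% of all genes. Among the 12 spindle cell tumors, Il18 was -1.83 (MSU_M86R), -0.64 and 0.33 (MSU_M129L) in 3 early and -3.62 (MSU_M18L), -2.44 and -0.69 (MSU_M76R) in 9 late tumors, which overlapped through MSU_M86R, with a difference of 1.38 (SE 0.65, unadjusted p = 0.0531, limma adjusted p = 1.0). Here 0 of 9 genes and 0% of all genes were called, with 0 of the 9 and 425 of all 20910 at an unadjusted p under 0.05. The Il18 onset difference was thus negative in epithelial and positive in spindle cell tumors, and the interaction was 2.21 (SE 0.66, 95% interval 0.88 to 3.53, unadjusted p = 0.00169), which over all genes had an adjusted p of 1.0. The epithelial difference was largest in HFD, where early and late tumors had means of -2.38 and -0.18. In LFD they had -1.90 and -1.88, in HFD-LFD -1.79 and -1.31, and in LFD-HFD -2.30 and -1.89. The early HFD values were -3.22 (MSU_60L), -2.85 (MSU_42L4B), -2.41 (MSU_65R) and -1.02 (MSU_40R4A). The 3 early spindle cell tumors were 1 HFD-LFD and 2 LFD-HFD tumors, so onset and regimen were not balanced there. Of the interaction terms 0 of 9 and 0.00478% of all genes were called.

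Within the 29 epithelial tumors the genes did not vary independently. Over 52 relations among 8 of the genes and the mean of 3 marker lists, 11 had an adjusted p under 0.05 by a permutation test of Pearson's r (two-sided, 100000 permutations, Benjamini-Hochberg). Of the 28 pairs of genes 20 had a positive r, and 6 passed. All values of a tumor come from 1 array and share its reference and slide. Values of r are also given within slides, which takes out differences between slides but not between arrays of the same slide. Il1a and Il6 had r = 0.72 (n = 28 tumors, permutation p = 3e-05, adjusted p = 0.00156, Spearman's rho = 0.62 with adjusted p = 0.0121), 0.70 without the 2 tumors farthest from the median of Il1a and 0.74 within slides. Il6 and Ptgs2 had r = 0.64 (n = 29, permutation p = 0.00019, adjusted p = 0.00485, rho = 0.61 with adjusted p = 0.0121), 0.47 without 2 tumors and 0.59 within slides.

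Il1b and Lif had r = 0.60 (n = 28, permutation p = 0.00073, adjusted p = 0.00853, rho = 0.55 with adjusted p = 0.0199), 0.44 without 2 tumors and 0.50 within slides. Il1b and Tnf had r = 0.57 (adjusted p = 0.0118, within slides 0.56), Il1a and Tnf 0.54 (adjusted p = 0.0179, 0.46) and Il1a and Il1b 0.52 (adjusted p = 0.0254, 0.34). Tnf and Ptgs2 had r = -0.01 and Tnf and Il6 r = 0.20, neither past the threshold. Il33 had no relation past the threshold, with r from -0.16 to 0.30.

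Of the marker lists, neutrophil markers moved with Il1a (r = 0.65, adjusted p = 0.00485, permutation test, and 0.41 without 2 tumors) and with Il6 (r = 0.59, adjusted p = 0.00853). Macrophage markers moved with Il6 (r = 0.56, adjusted p = 0.0179), Il1a (r = 0.53, adjusted p = 0.0226) and Tnf (r = 0.46, adjusted p = 0.0494), although by rank they passed for Tnf (rho = 0.48, adjusted p = 0.0463) and not for Il6 (rho = 0.25, adjusted p = 0.363) or Il1a (rho = 0.29, adjusted p = 0.312). T cell markers had no relation past the threshold. The part of leukocyte content in the pairs of genes was not tested.

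**Figure D5:**
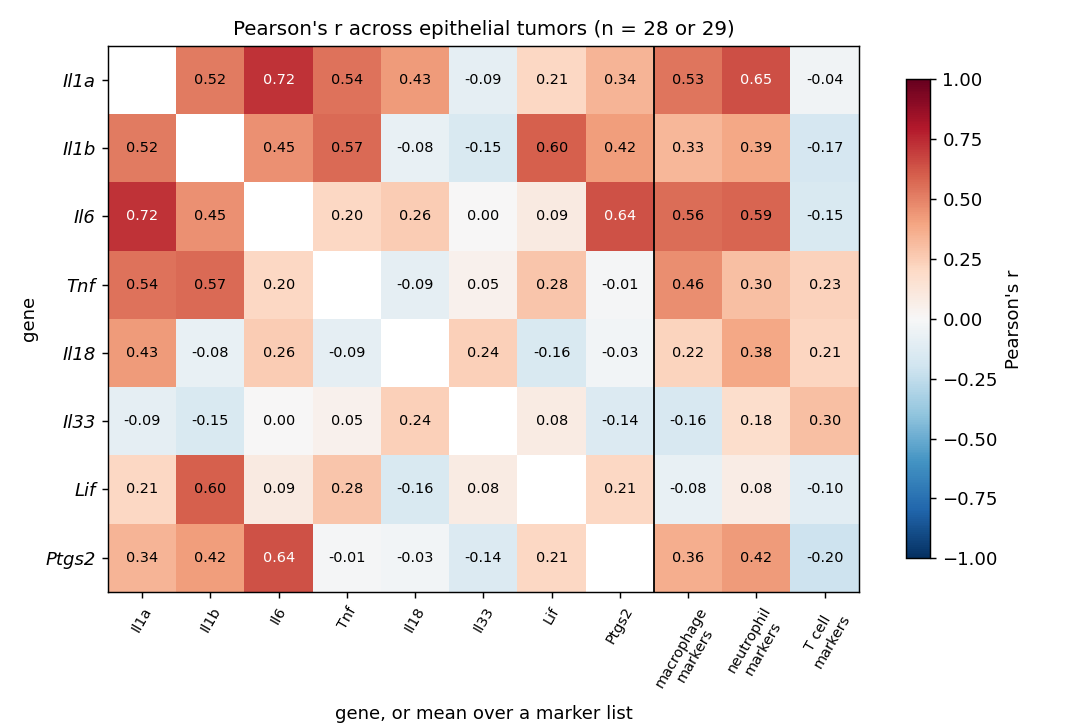
Pearson's r across epithelial tumors (n = 28 or 29) between 8 of the genes (rows) and each other or the mean of 3 marker lists (columns), from -1 in blue to 1 in red. Il1a and Il6, with r = 0.72, and Il6 and Ptgs2, with r = 0.64, stand out in red, while the row of Il33 stays pale.

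Among 8815 genes well measured across the epithelial tumors, those whose ratios were most like each gene were listed by Pearson's r, as a description over 28 or 29 tumors. For Il1a they were Il1rn (0.84), Msr1 (0.82) and Ccdc109b (0.81), for Il1b Fcgr1 (0.87), Sirpb1a (0.85) and Havcr2 (0.84), and for Il6 Msr1 (0.79), Saa3 (0.73) and Has1 (0.72). For Tnf they were Ikbke (0.80), Pik3r5 (0.80) and Tbc1d9 (0.80), and for Ptgs2 Slc39a14 (0.74), Fosl1 (0.73) and Cxcl5 (0.72). For Lif they were Zswim3 (0.79), Rgs9bp (0.79) and Aurkc (0.79), for Il33 Gipc2 (0.81), Sgsm1 (0.81) and Agtr1a (0.80), and for Il18 Sdk1 (0.74), Rec8 (0.73) and Slc46a2 (0.73). Msr1 appears for both Il1a and Il6, the pair with the highest r.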

How the data were processed

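RNA of 41 tumors was hybridised with a common reference on 2-colour Agilent arrays, and the p-values measure the spread between tumors. The authors deposited the scanner output of each array, with spot intensities in both channels, and a matrix of log2 ratios of 39265 probes that they had normalized, with column medians of -0.039 to 0.05 and an unstated centring. The labels give Feature Extraction 8.5.1.1, the file headers 11.0.1.1 or 10.5.1.1. From the processed intensities, which that software had background-subtracted and dye-normalized, log2 of Cy5 over Cy3 was taken. Outlier spots, 1.48% of values, were left missing, spots of a probe were averaged, and 27307 of 39429 probes remained, those whose signal exceeded 10 in the tumor and the reference channel on 80% of arrays or more. A probe was called well above background on an array where most of its unflagged spots were. Each gene was read from its probe of highest mean signal, at the mm9 positions of the files, which were not used for the promoters of GRCm38.p6.

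Differences were tested with limma 3.58.1 in R 4.3.3 (lmFit, eBayes, Benjamini-Hochberg over all genes tested), at 0.05 for histology and 0.10 otherwise. The study's methods name SAM, which was not run. All 10 genes were named whatever their values, and from each pathway list up to 3 called genes. The genes and lists were chosen with earlier results of these data known. Fits were tested on simulated data. Labels of variable morphology were read as epithelial, and 3 of the 38 label numbers stand on more than 1 tumor. Alternatives changed the background correction, centring, filter, probe rule, outliers, slide and session terms, samples, labels of 3 tumors and threshold, used the matrix, or left out each tumor.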

Additional observations from a re-analysis of the deposited data

Results flagged for a closer look

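Of 48 groups of values tested for a sample far from the rest, 1 had such a sample, and chance alone marks about 1 in 20 groups. In the 4 early LFD epithelial tumors, Il12b had a log2 ratio of 2.28 in tumor MSU_31R, where the others lay between 5.81 and 6.12. The tumor signal of Il12b in MSU_31R was not well above background.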

How the results depend on the processing

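Each comparison was recomputed under its alternatives, and no direction of a named gene with an unadjusted p under 0.05 reversed. Of the 9 tested genes, 1 was called between histologies, and 0 were called with slide as a random block and 0 among late tumors only, with 0 to 2 when single tumors were left out (Il6 and Ptgs2 without MSU_M128L). Between early and late epithelial tumors the count of 0 became 0 to 1 when single tumors were left out (Lif). Il12b, which is not among the 9, was tested in the authors' matrix and was 1 call there between early and late epithelial tumors and 1 over both histologies (1.01, adjusted p = 0.0842, limma). Both calls used the matrix labels of MSU_40R4A, MSU_57R and MSU_65R, whose columns matched the scanner files of other tumors. In HFD-LFD against LFD the count of 1 became 0 after normexp and loess (Lif -1.06, adjusted p = 0.104), with arrays centred on their median (-1.56, adjusted p = 0.107), in the matrix, where Lif was missing in 14 tumors and was left out, when slide was a random block (adjusted p = 0.347), with 1 tumor per label number (-1.56, adjusted p = 0.203), without tumors MSU_40R4A, MSU_57R and MSU_65R (adjusted p = 0.102), at a threshold of 0.05, and 0 to 1 when single tumors were left out. The interaction of pubertal diet with histology gave 1 (Lif) after normexp and loess. For Lif the fits without 1 of 12 tumors are named beside its call. In no other comparison did the number of called genes among the 9 move. The cause of these changes was not tested, beyond the fewer tumors or the stricter threshold of some of them. The number of all genes called moved from 93 to 2364 in the interaction after normexp and loess and from 262 to 6 in HFD-LFD against LFD with slide as a random block. Slide as a fixed block could not be fitted for the regimen contrasts among epithelial tumors, since LFD tumors shared no slide with the others. Low signals of Il10 and Il12b and of the Lif reference limit these genes. No paired analysis was possible because any pair of compared groups had at most 1 label number in common (11 between early and late, 56 between histologies).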
